A study of Mus musculus with 140 samples.

Results

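Mature mmu-miR-103-3p and mmu-miR-107-3p are microRNAs from hairpins inside introns of the pantothenate kinase genes, and they were followed through every compartment, state and time of a mouse kidney sepsis series. They were chosen by name as 2 of the 1474 miRNA entries in the table of raw read counts, because their pattern across the compartments of healthy mice was already known from these data. The series holds 140 small-RNA libraries from 28 male wild-type C57BL6/OlaHsd mice of an age not given in the sources used here. From each mouse came 5 libraries. Laser microdissection gave those of peritubular capillaries, arterioles, post-capillary venules and glomeruli, and whole kidney was not microdissected. The mice formed 7 groups of 4, called biological replicates in the labels. They had cecal ligation and puncture (CLP, a polymicrobial sepsis model in which the cecum is tied off and pierced) with 4, 24 or 72 h of follow-up, a sham operation with the same follow-up times, or no operation (healthy, 0 h).

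Pantothenate kinases catalyse the first and rate-limiting step of coenzyme A synthesis from pantothenate, vitamin B5. Their intronic miRNAs belong to the miR-15 and miR-107 group, which is named for a shared start of the mature strand and is known from work on lipid metabolism, insulin sensitivity, the cell cycle and the processing enzyme Dicer. An intronic miRNA on its host's strand can be made from the host transcript, but its mature level also depends on processing and decay, and host transcripts were not measured in these libraries.

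In the GRCm38.p6 annotation, Mir103-1 lies at chr11:35782396-35782481 on the plus strand in intron 5 of Pank3. Mir103-2 lies at chr2:131288052-131288137 on the plus strand in intron 5 of Pank2. Mir107 lies at chr19:34820687-34820773 on the minus strand in intron 5 of 2 Pank1 transcripts with 7 exons and in intron 4 of another with 6 exons. Each hairpin is on the same strand as its host gene. Both Mir103 loci give the identical mature strand, so the single miR-103-3p entry sums Pank2 and Pank3 and cannot be divided between them. The mature strands are shown because the comparison of the members rests on 1 base. They are RefSeq sequences, written 5′ to 3′, with the seed (bases 2 to 8) and the differing base in capitals.
miR-103-3p: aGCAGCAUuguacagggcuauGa
miR-107-3p: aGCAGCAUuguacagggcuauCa
The only difference in 23 bases is G22C, counted from 1 at the 5′ end with the miR-103-3p base first. A read that lacks the last 2 bases could come from either miRNA, with the authors' treatment of mismatches and of multiply matching reads not given in the sources used here. The ratio of the pair below is therefore the ratio of the deposited counts.

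The strands from the other arm of the same hairpins do separate the loci, with the seed in capitals:
miR-103-1-5p: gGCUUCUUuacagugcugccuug
miR-103-2-5p: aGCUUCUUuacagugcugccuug
miR-107-5p: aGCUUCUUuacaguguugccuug
Between the 2 miR-103 loci the difference is G1A, and from miR-103-2-5p to miR-107-5p it is C16U. These strands were rare. Summed over the 28 whole-kidney libraries, there were 462 counts of miR-103-1-5p, 1096 of miR-103-2-5p and 1364 of miR-107-5p, against 4352420 of miR-103-3p and 2629268 of miR-107-3p. Nearly all counted product of these hairpins was thus the 3p strand in whole kidney. In the microdissected compartments each 5p strand summed to between 0 and 74 counts over 28 libraries, too few to compare the loci. In whole kidney, 0 of the 3 strands were called between CLP and sham mice at 4, 24 or 72 h, where 0.185%, 0.738% and 1.85% of all miRNAs were called.

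Depth differed between compartments. Counts on miRNAs per library were 19307 to 569283 in arterioles, 77258 to 1352025 in glomeruli, 4215 to 49456 in peritubular capillaries, 15148 to 567040 in post-capillary venules and 1412288 to 7921184 in whole kidney. All 28 peritubular capillary libraries were under 100000. The table also has 10 entries marked with a # sign, which took 91.3% to 99.7% of all counts in peritubular capillaries and 0.907% to 13.96% in whole kidney and were left out of library sizes. The fewest counts on the pair were 303, in peritubular capillaries of healthy replicate 4, where the ratio of 1.20 had a 95% Wilson interval of 0.954 to 1.498. In the deepest library, whole kidney of CLP 24 h replicate 3, the ratio of 1.78 had an interval of 1.77 to 1.79. Such intervals cover counting error only.

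Summed cell-type markers differed between the compartments. As a part of all miRNA counts, the endothelial sum exceeded that of whole kidney only in glomeruli. Smooth muscle markers (the miR-143 and miR-145a strands) summed to a median of 514840 counts-per-million of miRNA counts (CPM) in sham arterioles and to 41889 to 95398 CPM in the other compartments. Endothelial markers (the miR-126a, miR-23a, miR-23b, miR-24, miR-27a, miR-27b, miR-221 and miR-222 strands) summed to 224620 CPM in glomeruli of sham mice. Arterioles at 93340 CPM, peritubular capillaries at 94723 CPM and post-capillary venules at 93671 CPM were below whole kidney at 108560 CPM. In arterioles the smooth muscle strands took much of the total, which lowers the CPM of all other miRNAs there. With the scaling of the fits below, most endothelial markers were called higher in arterioles than in the mean of the other microdissected compartments. Tubular markers (miR-192, miR-194 and miR-215 strands) summed to 8927 CPM in peritubular capillaries, with 4363 CPM in post-capillary venules, 1461 CPM in glomeruli, 269 CPM in arterioles and 9484 CPM in whole kidney. The epithelial miR-200 family summed to 23109 CPM in peritubular capillaries, 15511 CPM in post-capillary venules, 4493 CPM in glomeruli, 428 CPM in arterioles and 35020 CPM in whole kidney. Erythroid markers (the miR-451a, miR-144 and miR-486 strands) summed to 151870 CPM in sham post-capillary venules and to 9974.8 to 30553 CPM in the other compartments, so they took a larger part of the venular total. Tubular markers in the microdissected capillaries were thus near their level in whole kidney, and the miR-200 family was below it.

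In healthy mice the pair was most abundant in peritubular capillaries, and this is the pattern by which it was chosen, so it is given without a test. In peritubular capillaries of healthy replicates 1 to 4, miR-107-3p stood at 39843, 37124, 35256 and 32740 CPM. Arterioles of the same mice held 3131.6, 2152.0, 3335.8 and 3677.4 CPM, and their glomeruli held 5485.7, 5830.5, 4390.5 and 6039.7 CPM. The 4 capillary libraries were thus far above all arteriolar and glomerular ones, with no overlap. How many of all miRNAs were apart in this way was not counted. Post-capillary venules were between them at 10521, 9164.2, 11103 and 11898 CPM, and whole kidney held 27399, 26847, 29114 and 24158 CPM. By contrast miR-103-3p spanned a narrower range. Its levels in healthy mice were 38418, 37518, 36575 and 39146 CPM in peritubular capillaries, and 13351, 12556, 10714 and 12068 CPM in arterioles. Glomeruli held 18612, 17933, 19225 and 23364 CPM of miR-103-3p and post-capillary venules 23112, 21663, 22207 and 21668 CPM, with 38381, 39156, 38640 and 34513 CPM in whole kidney. For miR-103-3p, whole kidney overlapped peritubular capillaries and glomeruli overlapped post-capillary venules, whereas for miR-107-3p these pairs were apart.

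**Figure D1:**
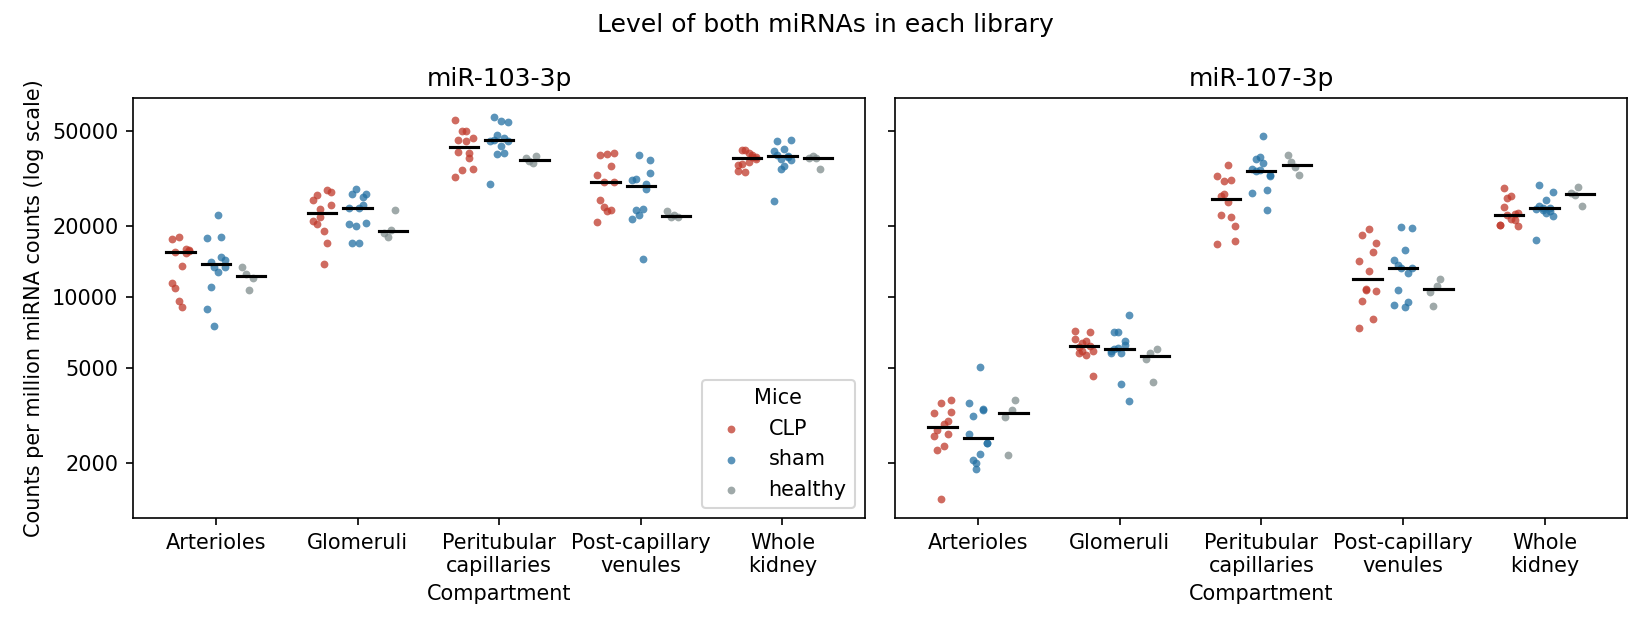
Levels of miR-103-3p and miR-107-3p in CPM on a log axis, for each of the 5 compartments. Each point is 1 library, with CLP mice on the left, sham mice in the middle and healthy mice on the right of each compartment, and black bars are medians; miR-107-3p spans a wider range of compartments than miR-103-3p, from 2536.6 CPM in sham arterioles to 34047 CPM in sham peritubular capillaries.

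The 12 sham mice are other animals than the healthy mice. The pair was chosen with earlier results of these data known, so the sham mice are not an independent check. In sham mice miR-107-3p ran from a lowest 23268 through a median of 34047 to a highest 47706 CPM in peritubular capillaries. Whole kidney followed with 17463, 23656 and 29613 CPM, then post-capillary venules with 9044.1, 13208 and 19721 CPM, glomeruli with 3637.0, 6048.3 and 8421.4 CPM and arterioles with 1890.6, 2536.6 and 5081.9 CPM (lowest, median and highest). Neighbours in this order overlapped, except that every venular library was above every glomerular one. The share of all miRNAs with such a separation was not counted. For miR-103-3p the lowest, median and highest sham values were 29887, 45817 and 57350 CPM in peritubular capillaries, and 25472, 39130 and 45902 CPM in whole kidney. Post-capillary venules held 14457, 29272 and 39584 CPM, glomeruli 16891, 23742 and 28619 CPM and arterioles 7522.4, 13717 and 22233 CPM of miR-103-3p. The same order held as for miR-107-3p, and every pair of neighbours overlapped. Together the pair made up a median of 8.14% of miRNA counts in sham peritubular capillaries, against 1.63% in arterioles, 2.96% in glomeruli, 4.06% in post-capillary venules and 6.25% in whole kidney. Among all miRNAs ranked by count, miR-103-3p was between place 1 and place 6 in sham peritubular capillaries and miR-107-3p between place 3 and place 10. In sham arterioles those places were 8 to 19 and 37 to 50.

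The compartments were compared over all miRNAs by a negative binomial fit with the mouse as a block, scaled by the trimmed mean of M-values (TMM), which differs from CPM where a few miRNAs take much of a library. Each difference below is a log2 fold change of 1 microdissected compartment over the mean of the other 3 in sham mice, with its standard error (SE) and the p-value of edgeR's quasi-likelihood test after Benjamini-Hochberg adjustment over 383 miRNAs. A miRNA was called at an adjusted p under 0.05. In peritubular capillaries miR-107-3p was higher by 1.62 (SE 0.0972, adjusted p = 1.52e-25), a 3.07-fold difference. It was lower in arterioles by a log2 fold change of -1.25 (SE 0.113, adjusted p = 4.48e-16) and in glomeruli by -0.78 (SE 0.109, adjusted p = 6.04e-09). In post-capillary venules miR-107-3p was higher by 0.41 (SE 0.102, adjusted p = 0.00099), but the median of all miRNAs there was 0.51. The paralogue miR-103-3p was called in 1 of these comparisons, higher by 0.30 in peritubular capillaries (SE 0.0873, adjusted p = 0.00305). Its other differences missed the threshold, at -0.10 in arterioles (SE 0.0891, adjusted p = 0.515), -0.13 in glomeruli (adjusted p = 0.259) and -0.08 in post-capillary venules (adjusted p = 0.621). With the pair summed into 1 entry, the difference was 0.84 in peritubular capillaries, -0.42 in arterioles, -0.36 in glomeruli and -0.06 in post-capillary venules, with adjusted p of 2.92e-15, 3.33e-05, 0.000343 and 0.698 in the same test.

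Calls in the same direction as miR-107-3p were common over all miRNAs. Called higher were 12.8% of miRNAs in peritubular capillaries and 16.7% in post-capillary venules, and called lower were 15.1% in arterioles and 7.83% in glomeruli. In the opposite direction, 27.7% were called lower in peritubular capillaries and 7.83% in post-capillary venules, and 16.4% were called higher in arterioles and 30.8% in glomeruli. Over all miRNAs the median of that quantity was -0.83 in peritubular capillaries, -0.12 in arterioles and 0.49 in glomeruli, so miR-107-3p was on the far side of the median in each. Scaling by the plain miRNA total moved those medians by 0.76 in peritubular capillaries, -0.97 in arterioles, -0.06 in glomeruli and 0.28 in post-capillary venules. On that scale miR-107-3p was at 2.47 in peritubular capillaries and -2.31 in arterioles, and miR-103-3p was called lower in arterioles at -1.17 and was above 0 in post-capillary venules at 0.19 (adjusted p = 0.0931, edgeR). Without replicate 1 of each group the arteriolar difference of miR-103-3p was 0.03, and with the 24 h and 72 h sham mice alone its capillary difference was 0.23 (adjusted p = 0.0887, edgeR). The venular difference of miR-107-3p missed the threshold without replicate 4 of each group, at 0.30, and with the 4 h sham mice alone, at 0.27.

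**Figure D2:**
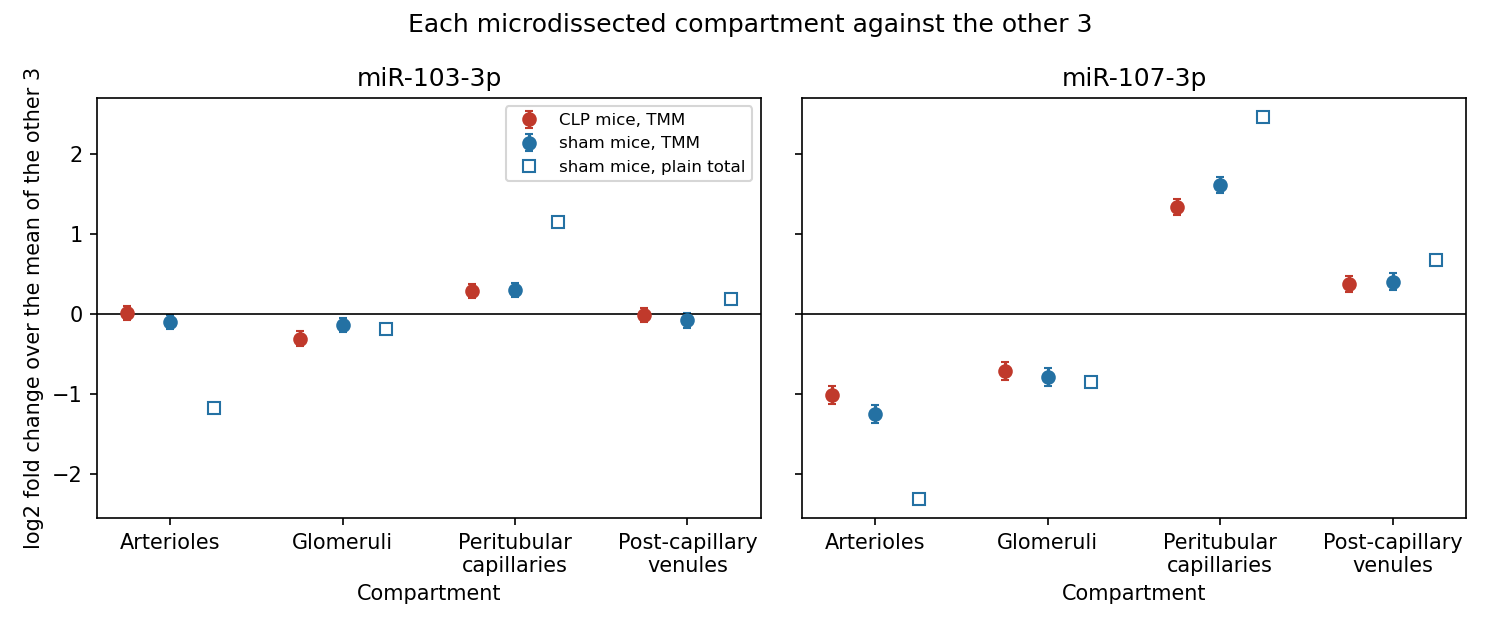
Log2 fold change of each microdissected compartment over the mean of the other 3, for miR-103-3p and miR-107-3p. Filled circles with SE bars are TMM-scaled fits in CLP mice and in sham mice, and open squares are the sham values after plain scaling to the miRNA total; on the TMM scale miR-107-3p runs from -1.25 in sham arterioles to 1.62 in sham peritubular capillaries, and miR-103-3p from -0.30 in glomeruli of CLP mice to 0.30 in peritubular capillaries.

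Tubular and epithelial markers were also counted across the compartments of sham mice. Of 5 tubular markers, 3 were called higher and 0 lower in sham peritubular capillaries, 4 and 0 in post-capillary venules, 0 and 1 in glomeruli, and 0 and 3 in arterioles, where miR-192-3p was at 0. Of 8 miR-200 family strands, 6 were called higher in peritubular capillaries and 6 in post-capillary venules, 0 were called in either direction in glomeruli, and 7 were called lower in arterioles. Of 9 endothelial markers, 2 were called higher and 7 lower in peritubular capillaries and in post-capillary venules, 7 higher and 1 lower in glomeruli, and 7 higher and 2 lower in arterioles. Over all miRNAs, 12.8% were called higher and 27.7% lower in peritubular capillaries, 16.7% and 7.83% in post-capillary venules, 30.8% and 7.83% in glomeruli, and 16.4% and 15.1% in arterioles. In bulk tissue a different share of cells of a type and a different amount of the RNA per cell cannot be told apart.

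The CLP mice gave the same directions for miR-107-3p. In them it was higher by 1.34 in peritubular capillaries (adjusted p = 1.20e-20, edgeR) and by 0.38 in post-capillary venules (adjusted p = 0.00264, edgeR), and differed by -1.01 in arterioles and -0.71 in glomeruli (adjusted p = 1.12e-12 and 8.77e-08, edgeR). Over all miRNAs, the share called in those directions was 15.1%, 18.5%, 15.9% and 9.92%. In CLP mice miR-103-3p was called in 2 compartments, higher by 0.30 in peritubular capillaries and lower in glomeruli at -0.30 (adjusted p = 0.00369 and 0.00479, edgeR). Tested directly, the capillary difference of miR-107-3p was smaller in CLP mice than in sham mice by a log2 difference of -0.28 that missed the threshold (SE 0.148, adjusted p = 0.563, edgeR). In that test 0% of miRNAs were called in any of the 4 compartments.

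The ratio of miR-103-3p to miR-107-3p within a library needs no scaling, and it set the compartments apart. Among sham mice it had a median of 5.32 in arterioles (range 2.48 to 6.73), 3.91 in glomeruli (2.81 to 5.66), 2.08 in post-capillary venules (1.498 to 3.00), 1.63 in whole kidney (1.45 to 1.76) and 1.40 in peritubular capillaries (0.909 to 1.74). All arteriolar and glomerular ratios were above all of those in peritubular capillaries. Ratios of other pairs of miRNAs were not compared between compartments, so the separations here are not shown to be particular to this pair. Pairing the libraries of each mouse, the arteriolar ratio was 3.63 times the capillary ratio and the glomerular ratio 2.80 times it, each higher in 12 of 12 mice. The adjusted p was 0.000698 for both (exact two-sided permutation test over signs within mice, 10 pairs of compartments). The smallest unadjusted p that 12 mice allow is 0.000488, and 7 of the 10 pairs reached it. The capillary ratio was 0.648 times the venular one and lower in 12 of 12 mice. Arterioles exceeded post-capillary venules 2.36-fold and whole kidney 3.05-fold, and glomeruli exceeded them 1.82-fold and 2.35-fold, in 12 of 12 mice each.

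The remaining 3 pairs of compartments were closer. Arterioles exceeded glomeruli 1.297-fold in 10 of 12 mice (adjusted p = 0.0132, exact permutation test) and post-capillary venules exceeded whole kidney 1.296-fold in 10 of 12 mice (adjusted p = 0.00305, exact permutation test). Peritubular capillaries were at 0.84 times the whole-kidney ratio, higher in 4 of 12 mice (adjusted p = 0.013, exact permutation test). In the 24 h and 72 h sham mice alone this last difference was -0.11 on the log2 scale and missed the threshold (adjusted p = 0.188, exact permutation test). Without replicate 3 of each group the arteriole to glomerulus difference was 0.34 on the log2 scale (adjusted p = 0.0664, exact permutation test). Healthy mice gave ratios, for replicates 1 to 4, of 4.26, 5.83, 3.21 and 3.28 in arterioles, 3.39, 3.08, 4.38 and 3.87 in glomeruli, and 0.964, 1.01, 1.04 and 1.20 in peritubular capillaries. Among the microdissected compartments of healthy mice, the capillaries were thus where the counts of the paralogues came nearest to equal. Post-capillary venules of healthy mice had ratios of 2.20, 2.36, 2.00 and 1.82, and whole kidney had 1.40, 1.46, 1.33 and 1.43.

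Within a compartment, no relation of the ratio to the summed tubular markers passed the test. Over the 28 libraries of each compartment, Pearson's r was between -0.166 and 0.151 and Spearman's rho between -0.175 and 0.137. Without the 2 libraries farthest from the median of the markers, r was between -0.303 and 0.328 for those sets and between -0.649 and 0.588 over all 15 relations computed. Within the libraries of 1 style of column name, r was between -0.571, in whole kidney of the 12 healthy and 4 h mice (p = 0.0521, permutation test), and 0.436, in peritubular capillaries of the same mice. Over 15 such relations the lowest adjusted p was 0.644 for r and 0.599 for rho (permutation test). This relation was chosen after the data were seen. It lies within compartments, and the part of tubular RNA in the differences between compartments was not tested.

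**Figure D3:**
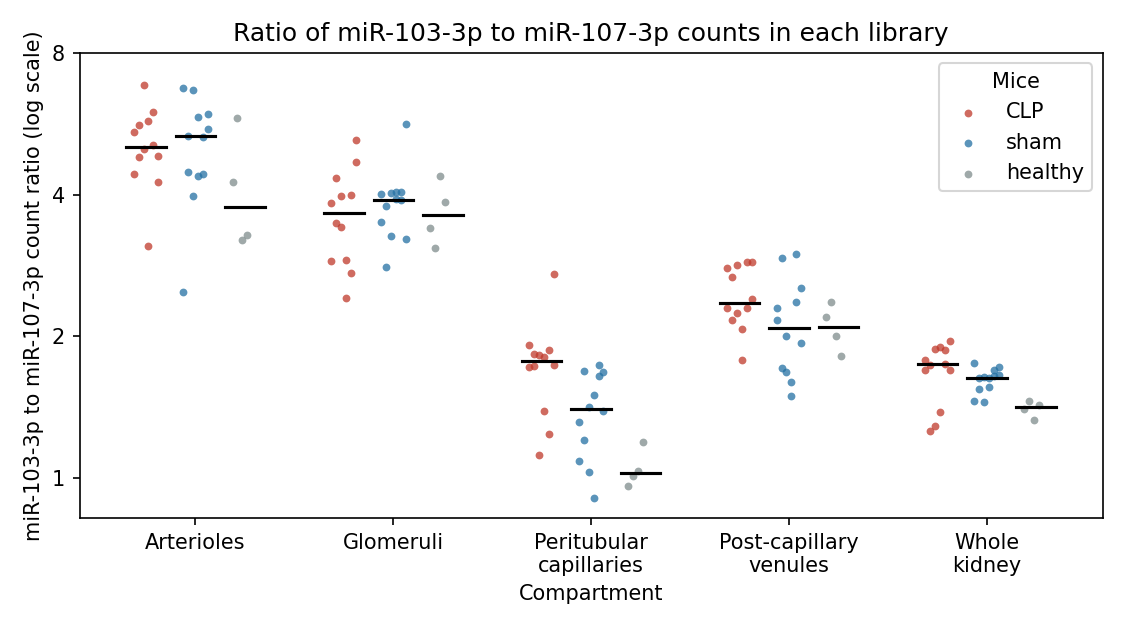
Ratio of miR-103-3p to miR-107-3p counts within each library, on a log axis, for the 5 compartments. Each point is 1 library, with CLP mice on the left, sham mice in the middle and healthy mice on the right, and black bars are medians; sham medians run from 5.32 in arterioles to 1.40 in peritubular capillaries.

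Whole kidney held more of both miRNAs than the mean of the microdissected compartments, though less in CPM than peritubular capillaries. In sham mice miR-107-3p exceeded the mean of the 4 compartments by 1.60 on the log2 scale (SE 0.0894, adjusted p = 3.41e-23, edgeR), and miR-103-3p by 0.87 (SE 0.0783, adjusted p = 1.04e-14, edgeR). The summed pair was higher by 0.89 (adjusted p = 5.98e-16, edgeR). Over 376 miRNAs, 44.9% were called higher and 17.3% lower in whole kidney and the median was 0.67. Tissue and collection method cannot be told apart in this comparison.

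Within each compartment CLP and sham mice were set against each other at every time, which is the comparison the series was made for. No call was made for miR-103-3p, miR-107-3p or their sum in any of 15 comparisons with edgeR's quasi-likelihood test. Log2 fold changes of CLP over sham were between -0.16 and 0.29 for miR-103-3p (SE 0.1096 to 0.208) and between -0.34 and 0.20 for miR-107-3p (SE 0.122 to 0.241). At an unadjusted p under 0.05 there were 0 for either. The lowest adjusted p was 0.509 for miR-103-3p and 0.464 for miR-107-3p (edgeR). Few miRNAs were called at all. The share over all miRNAs at 4, 24 and 72 h was 0.36%, 0% and 0% in arterioles, 0.592%, 0% and 0.592% in glomeruli, 0%, 0.498% and 0.995% in peritubular capillaries, 0%, 0% and 1.4% in post-capillary venules, and 0.185%, 0.738% and 1.85% in whole kidney. A test for a CLP effect that differs between the 4 microdissected compartments called neither miRNA at 4, 24 or 72 h, where 0.261%, 0% and 0% of miRNAs were called.

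The peritubular capillaries, where the pair was most abundant, show the size of the spread. At 4 h miR-107-3p was at 16766, 26547, 30718 and 36103 CPM in CLP mice, against 27489, 38153, 38825 and 47706 CPM in sham mice. At 24 h it was at 21734, 19977, 32283 and 22273 CPM in CLP mice, against 28311, 32530, 34671 and 33936 CPM in sham mice. At 72 h the levels were 27313, 25109, 31035 and 17239 CPM in CLP mice, against 34157, 36767, 23268 and 32595 CPM in sham mice. CLP and sham libraries overlapped at each time, with the lowest library in the CLP group and the highest in the sham group. The log2 fold changes of miR-107-3p were -0.32 (SE 0.241), -0.12 (SE 0.239) and -0.34 (SE 0.239) at 4, 24 and 72 h, and the unadjusted p of edgeR was 0.186, 0.608 and 0.167. For miR-103-3p the capillary levels at 4 h were 32179, 45912, 34445 and 50116 CPM in CLP mice, against 29887, 45953, 39967 and 43369 CPM in sham mice. At 24 h they were 40626, 34689, 55533 and 40817 CPM in CLP mice, against 46617, 45291, 45682 and 57350 CPM in sham mice. At 72 h CLP mice had 49958, 45364, 38590 and 46761 CPM of miR-103-3p, against 48334, 55120, 40406 and 54816 CPM in sham mice. These groups overlapped at all 3 times, with log2 fold changes of 0.19, 0.11 and -0.13. The direction at 24 h turned under plain scaling, where it was -0.18. In CLP replicate 3 at 24 h the erythroid markers summed to 219870 CPM, against 15413 to 73397 CPM in the other CLP capillary libraries. Without replicate 3 of each group the 24 h changes were -0.39 for miR-103-3p and -0.60 for miR-107-3p, and neither was called (adjusted p = 0.838 and 0.556, edgeR). With the # entries in place of the miRNAs as the scale, the 72 h capillary changes were -1.45 for miR-103-3p and -1.69 for miR-107-3p and both were called (adjusted p = 0.0198 and 0.0108, edgeR). On that scale 24.4% of all miRNAs were called lower in the same comparison, with a median log2 fold change of -1.33. The # entries took 97.9% to 98.9% of all counts in these CLP libraries, against 94.98% to 97.3% in the sham libraries, and what they contain was not stated in the labels.

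Whole kidney was the deepest compartment and its fold changes had the smallest SE of the 5. At 72 h miR-107-3p was at 22204, 21337, 21182 and 20012 CPM in CLP mice, against 23280, 25723, 23079 and 27754 CPM in sham mice. The groups did not overlap, and the log2 fold change of -0.23 missed the threshold (SE 0.122, unadjusted p = 0.0659, adjusted p = 0.464, edgeR), where 1.85% of miRNAs were called. The share of all miRNAs without overlap was not counted. At 24 h the levels of miR-107-3p were 22318, 22630, 20195 and 23863 CPM in CLP mice, against 23758, 22001, 23553 and 29613 CPM in sham mice, and at 4 h they were 20038, 28783, 26085 and 26773 CPM in CLP mice, against 17463, 24287, 23848 and 22710 CPM in sham mice. Groups overlapped at both times, with log2 fold changes of -0.22 at 24 h and 0.20 at 4 h. Levels of miR-103-3p at 72 h were 41743, 40570, 39607 and 39117 CPM in CLP mice, against 38114, 41904, 39147 and 45902 CPM in sham mice. The log2 fold changes of miR-103-3p were 0.06, -0.15 and -0.03 at 4, 24 and 72 h. Scaled to the # entries, the 72 h whole-kidney changes were 0.82 for miR-103-3p (adjusted p = 0.0196, edgeR) and 0.62 for miR-107-3p (adjusted p = 0.0666, edgeR), the opposite direction. On that scale 51.1% of all miRNAs were called higher, and their median was 0.87. In these libraries the # entries took 0.907% to 1.64% of counts in CLP mice, against 1.77% to 2.32% in sham mice.

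**Figure D4:**
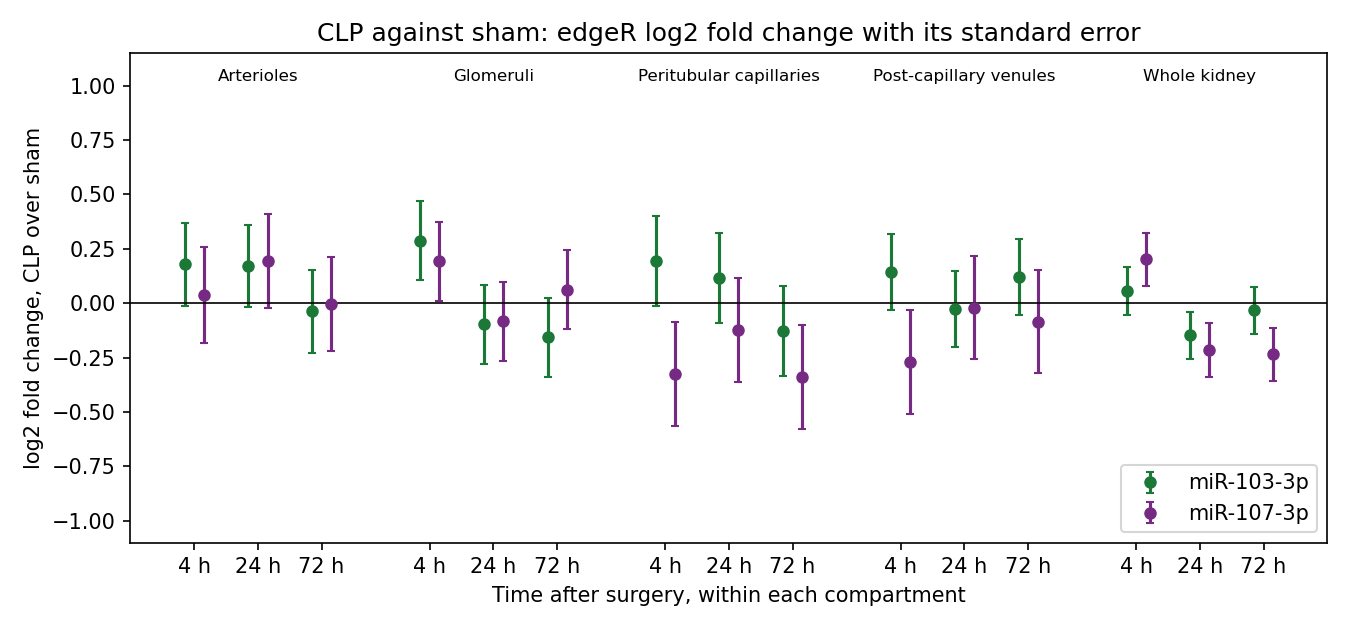
Log2 fold change of CLP over sham with its SE for miR-103-3p and miR-107-3p, in each compartment at 4, 24 and 72 h. The 15 values lie between -0.16 and 0.29 for miR-103-3p and between -0.34 and 0.20 for miR-107-3p, and none passed the test.

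CLP and sham libraries of the other microdissected compartments overlapped at every time for both miRNAs. In arterioles miR-107-3p ranged from 1405.5 to 2908.4 CPM in CLP mice and from 1890.6 to 3590 CPM in sham mice at 4 h. At 24 h it ranged from 2760.9 to 3262.3 CPM in CLP mice and from 2426.2 to 3342.8 CPM in sham mice, and at 72 h from 2346.7 to 3681.5 CPM in CLP mice and from 1998.7 to 5081.9 CPM in sham mice. Arteriolar miR-103-3p ranged from 9048.4 to 11450 CPM in CLP mice and from 7522.4 to 12690 CPM in sham mice at 4 h. Its range at 24 h was 15285 to 17578 CPM in CLP mice and 14088 to 17809 CPM in sham mice, and at 72 h it was 13486 to 17864 CPM in CLP mice and 13320 to 22233 CPM in sham mice. At 24 and 72 h the arteriolar range of each miRNA in CLP mice lay within that of sham mice. Glomerular miR-103-3p at 4 h was at 25598, 20285, 23507 and 18989 CPM in CLP mice, against 20383, 16891, 19881 and 16913 CPM in sham mice, where 2 CLP libraries lay within the sham range. At 72 h glomeruli held 13715 to 28390 CPM of miR-103-3p in CLP mice and 20589 to 28619 CPM in sham mice. Venular miR-107-3p at 4 h was at 7424.6, 9631.8, 10719 and 12923 CPM in CLP mice, against 9236.2, 13594, 13212 and 15716 CPM in sham mice. Venular miR-103-3p at 72 h ranged from 30620 to 40456 CPM in CLP mice and from 14457 to 39584 CPM in sham mice, with sham replicate 2 at 14457 CPM the lowest venular library.

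The ratio of the pair separated CLP from sham libraries without overlap in 2 of 15 comparisons. For 4 mice against 4, chance alone separates a comparison with a probability of 0.0286. Ratios of other pairs of miRNAs were not counted. In peritubular capillaries at 24 h it was 1.87, 1.74, 1.72 and 1.83 in CLP mice, against 1.65, 1.39, 1.32 and 1.69 in sham mice, with no overlap. The mean log2 ratio was higher in CLP mice by 0.25 (p = 0.0286, adjusted p = 0.214, exact two-sided permutation test), and by 0.21 without replicate 3 of each group. In whole kidney at 72 h the ratio was 1.88, 1.90, 1.87 and 1.95 in CLP mice, against 1.64, 1.63, 1.70 and 1.65 in sham mice, again with no overlap. The log2 difference was 0.20 (p = 0.0286, adjusted p = 0.214, exact permutation test). That p is the smallest that 4 mice against 4 allow. With only 2 of 15 comparisons at it, no adjusted p could fall under 0.05, so the test could not decide. At 4 h in peritubular capillaries the ratio was 1.92, 1.73, 1.12 and 1.39 in CLP mice, against 1.09, 1.20, 1.03 and 0.909 in sham mice. Here 1 CLP library lay within the sham range, and the log2 difference was 0.52 (p = 0.0571, adjusted p = 0.286, exact permutation test). At 72 h in capillaries the log2 difference was 0.21 (p = 0.486, exact permutation test). In whole kidney it was -0.13 at 4 h and 0.06 at 24 h. Of all 15 comparisons of the ratio, 0 passed, which leaves those without overlap undecided.

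Sham and healthy mice could be compared at 4 h, where their libraries share a style of column name. Neither miRNA was called in any of 5 compartments. Log2 fold changes of sham over healthy were -0.15 to 0.09 for miR-103-3p and -0.28 to 0.34 for miR-107-3p. In whole kidney miR-107-3p was at 17463, 24287, 23848 and 22710 CPM in sham mice at 4 h, against 27399, 26847, 29114 and 24158 CPM in healthy mice. The groups overlapped by 1 library, and the log2 fold change was -0.28 (SE 0.123, unadjusted p = 0.0303, adjusted p = 0.748, edgeR). The share of all miRNAs called was 1.44% in arterioles, 0.185% in whole kidney and 0% in the other 3 compartments. The CLP effect at 72 h minus that at 24 h was between -0.24 and 0.15 for miR-103-3p and between -0.21 and 0.15 for miR-107-3p, with 0 calls for either in 5 compartments and 0% of all miRNAs called in each.

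Other members of the miR-15 and miR-107 group differ from the pair in where the shared letters stand. The examples show the seed in capitals, from RefSeq.
miR-16-5p: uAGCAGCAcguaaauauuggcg
miR-497a-5p: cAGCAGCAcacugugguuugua
miR-322-5p: cAGCAGCAauucauguuuugga
In these and in miR-15a-5p, miR-15b-5p and miR-195a-5p the shared letters start at base 2 and fill the seed, whereas in miR-103-3p and miR-107-3p they start at base 1, so that the seeds differ. Of the 7 other measured group members, those whose fit gave an SE over 10 had no usable value. These were miR-503-5p outside glomeruli and whole kidney and miR-15b-5p in arterioles. In sham mice 0 of 6 usable members were called higher in peritubular capillaries and 2 were called lower, where 12.8% and 27.7% of all miRNAs were called, with a median log2 fold change of -0.95 against -0.83 for all. In arterioles 2 of 5 were higher and 3 lower, against 16.4% and 15.1% of all miRNAs, with a median of -0.25. In glomeruli 3 of 7 were higher and 0 lower, against 30.8% and 7.83% of all miRNAs, with a median of 0.74. In post-capillary venules 1 of 6 was higher and 1 lower, against 16.7% and 7.83% of all miRNAs, with a median of -0.09. Glomerular miR-322-5p, a strand from the X-linked cluster it shares with miR-503, was higher by 3.14 (SE 0.319, adjusted p = 7.37e-14, edgeR). By contrast miR-497a-5p, which is clustered with miR-195a, was higher in arterioles by 1.11 (SE 0.149, adjusted p = 1.30e-09, edgeR) and lower in peritubular capillaries at -0.96 (adjusted p = 2.23e-06, edgeR). In whole kidney 2 of 7 were higher and 0 lower, against 44.9% and 17.3% of all miRNAs, among them miR-16-5p at 0.53. Between CLP and sham mice, 5 to 7 of the other group members could be tested, and 0 were called in any of the 15 comparisons by edgeR, with 4 of 90 tests (4.44%) at an unadjusted p under 0.05, against 7.16% of the tests over all miRNAs.

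Among miRNAs within other metabolic genes, miR-378a-3p had the same direction as miR-107-3p in each compartment. It lies in an intron of Ppargc1b, a transcriptional coactivator of mitochondrial genes. Its log2 fold change in sham mice was 1.07 in peritubular capillaries, -1.1 in arterioles, -0.37 in glomeruli and 0.40 in post-capillary venules, each called by edgeR, with 1.57 for whole kidney over the 4 compartments. Over all miRNAs, 12.8% were called higher in peritubular capillaries, 16.7% in post-capillary venules and 44.9% in whole kidney. Called lower were 15.1% in arterioles and 7.83% in glomeruli. The venular value was below the median of all miRNAs, 0.51, and the whole-kidney median was 0.67. The other strand of that hairpin, miR-378a-5p, was called higher in peritubular capillaries at 2.38 and lower in arterioles at -3.48, but was at 0.17 in glomeruli (adjusted p = 0.757, edgeR) and 0.93 in post-capillary venules (adjusted p = 0.226, edgeR). The Srebf2 miRNA miR-33-5p, known for its action on cholesterol export, was not called in any compartment of sham mice. Its log2 fold changes were imprecise, at 0.77 in glomeruli (SE 0.70), -2.01 in peritubular capillaries (SE 1.33) and 1.16 in post-capillary venules (SE 0.74). In arterioles it was at 0.08 (SE 0.28). The capillary SE of miR-378a-3p was 0.0952.

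Likeness was measured by Pearson's r of the mean TMM-scaled log2 CPM over the 35 groups of compartment, state and time among 445 miRNAs. The 5 most like miR-107-3p were miR-203-3p (r = 0.971), miR-378a-3p (0.945), miR-192-5p (0.935), miR-221-3p (0.927) and miR-103-3p (0.914). Of these, miR-192-5p is also in the tubular list above and miR-221-3p in the endothelial one. For miR-103-3p they were miR-30e-5p with r = 0.921, then miR-203-3p with 0.918, miR-107-3p with 0.914, and further down miR-9-5p (0.871) and miR-181b-5p (0.845). The groups share mice and compartments, so these values describe the libraries and carry no test.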

How the data were processed

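Small RNA of 140 libraries was sequenced from a RealSeq kit, per the labels' protocols. The authors deposited 1 table of raw counts per miRNA. FastQC 0.11.9, MultiQC 1.10, cutadapt 3.3, Bowtie 1.3.0 and the builds GRCm38.p6 and GRCm39 are named in the submitters' processing notes, with roles not given in the sources used here. Rows marked # (10 entries, 0.907% to 99.7% of a library's counts) entered neither library sizes nor tests. Levels are counts-per-million (CPM) of miRNA counts. Fits used edgeR 4.0.16 in R 4.3.3 (TMM, quasi-likelihood test, low counts filtered with a minimum count of 10 and a total of 15), with Benjamini-Hochberg adjustment over all miRNAs tested and a threshold of 0.05. The SE of a log2 fold change is its absolute value divided by the square root of the test's F statistic. CLP against sham was fitted per compartment on 28 libraries. Compartments were fitted on 112 microdissected libraries, or on the 60 libraries of sham mice with whole kidney, with the mouse as block. Scripts were tested on simulated data.

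Ratios are those of the counts, and their log2 values, with 0.5 added to each count, were tested by exact permutation. Sequences and hairpin positions are RefSeq's on GRCm38.p6. Host genes, their transcripts and introns were taken from the GENCODE annotation. Named were the members, the other arms of their hairpins, the miR-15 and miR-107 group, 4 strands from Srebf2 and Ppargc1b introns, and the 5 miRNAs most like each member. The members and lists were chosen with earlier results of these data known. Alternatives were DESeq2 1.42.0, other scalings, no filter, libraries under 100000 counts left out, replicates left out, a replicate block and subsets of mice. Column names have 1 style for healthy and 4 h mice (60 libraries) and another for 24 h and 72 h mice (80 libraries), so time and name style cannot be told apart.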

Additional observations from a re-analysis of the deposited data

Results flagged for a closer look

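Each of the 35 groups of 4 libraries was checked for a highest or lowest library that stood far from its group, by Dixon's test for miR-103-3p, miR-107-3p and their ratio. Of these 105 checks (35 groups and 3 measures, which are not independent because the ratio is made from the other measures), 5 found such a library, and chance alone marks about 1 in 20. In peritubular capillaries of sham mice at 24 h, miR-103-3p was highest in replicate 4 at 57350 CPM, with the others at 45291 to 46617 CPM. In whole kidney of healthy mice it was lowest in replicate 4 at 34513 CPM, with the others at 38381 to 39156 CPM. In arterioles of sham mice at 4 h, miR-107-3p was highest in replicate 1 at 3590 CPM, with the others at 1890.6 to 2173.2 CPM, in a library of 35655 miRNA counts. In glomeruli of sham mice at 4 h it was lowest in replicate 4 at 4313.2 CPM, with the others at 5831.4 to 6077.9 CPM. In glomeruli of sham mice at 72 h the ratio was highest in replicate 4 at 5.66, with the others at 4.04 to 4.06.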

How the results depend on the processing

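The labels do not say whether replicate numbers pair CLP and sham mice, and correlation alone cannot decide it. Of 60 pairs of same-numbered libraries, 10 correlated above 0.1 (r from -0.28 to 0.283), and in 0 of 15 comparisons did every pair. With the replicate number as a block, 0 of 15 CLP comparisons were called for either miRNA, and it changed no other call. Scaled to the # entries, 2 of 15 were called for miR-103-3p and 1 for miR-107-3p, at 72 h, where 24.4% of all miRNAs were called in capillaries and 51.1% in whole kidney, and the log2 change was 0.010 for miR-107-3p in capillaries at 24 h, and in whole kidney -0.27 and -0.12 at 4 h, 0.28 and 0.21 at 24 h, and 0.82 and 0.62 at 72 h for miR-103-3p and miR-107-3p. For miR-103-3p in capillaries at 24 h it was -0.063 with DESeq2, -0.18 with plain totals, -0.0016 without a filter and -0.39 to 0.12 with a replicate left out. With a replicate left out, miR-103-3p in whole kidney ran from -0.12 to 0.10 at 4 h and from -0.12 to 0.040 at 72 h. Among compartments of sham mice, miR-103-3p in arterioles was -0.21 with DESeq-type size factors, -1.17 with plain totals and -0.11 to 0.032 with a replicate left out. It was -0.33 in glomeruli with those size factors (called), 0.23 in capillaries of 24 h and 72 h mice and 0.19 in venules with plain totals. Venular miR-107-3p was 0.27 in 4 h mice and 0.30 to 0.37 with a replicate left out. Ratio differences in the 4 h sham mice alone, which cannot pass at 4 mice, were 0.32, 1.99, 1.23 and 1.45 (log2) for arterioles against glomeruli, capillaries, venules and whole kidney, 1.67, 0.92 and 1.13 for glomeruli against the same last 3, -0.75 and -0.54 for capillaries against venules and whole kidney, and 0.22 for venules against whole kidney. Capillaries against whole kidney was -0.11 in 24 h and 72 h mice and -0.26 to -0.24 with a replicate left out, and arterioles against glomeruli was 0.29 to 0.45. The causes were not tested. Capillary libraries, at 4215 to 49456 miRNA counts, limit what could be detected there.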

Other observations

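The ratio of miR-103-3p to miR-107-3p differed between the libraries with either style of column name. For 24 h and 72 h mice it was 1.74 ± 0.113 in whole kidney (SD, n = 16), against 1.45 ± 0.131 for healthy and 4 h mice (SD, n = 12). In peritubular capillaries it was 1.70 ± 0.334 for 24 h and 72 h mice and 1.22 ± 0.313 for healthy and 4 h mice. For 24 h and 72 h mice arterioles had 5.34 ± 0.771, glomeruli 3.90 ± 0.857 and post-capillary venules 2.40 ± 0.413, against 4.45 ± 1.32, 3.54 ± 0.476 and 2.09 ± 0.407 for healthy and 4 h mice (n = 16 and 12). Time and name style cannot be told apart here, and the difference was not tested.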
